A study of Mus musculus with 9 samples.

Results

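The enzymes of glucose uptake, glycolysis, the pyruvate dehydrogenase complex, the citric acid cycle and the malate-aspartate shuttle were followed in mouse ventricle. The set holds 42 named genes, taken by gene symbol from the array annotation, out of 8252 genes with a probe set on the array. A probe set is a group of short oligonucleotides on the array that detect 1 transcript. Of the 42 genes, 38 had an ordinary probe set and 37 had a probe set bright enough to be tested. Gpi1, Eno1 and Pfkfb1 had no annotated probe set, Gapdh was present only as array control probe sets, and Got1 lay at or under the detection floor on all 9 arrays. Every one of the 37 tested genes is described by its probe set with the highest mean over the 9 arrays, and 7 of them had a further tested probe set.

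Ventricles of 9 mice were hybridised, 1 array per animal, in 3 groups of 3. The caPI3K mice were transgenic for phosphoinositide 3-kinase (PI3K) in a constitutively active form and the dnPI3K mice for PI3K in a dominant-negative form, while the NTG mice, the controls of both, were non-transgenic. Compared with wild type littermates, the labels describe caPI3K hearts as larger by 20% and dnPI3K hearts as smaller by 17%. They give no strain, age, sex, transgene promoter or number of founder lines, and the tissue is described as ventricle only.

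Glycolysis splits glucose into pyruvate in the cytosol, pyruvate dehydrogenase commits pyruvate to the mitochondrion as acetyl-CoA, and the citric acid cycle oxidises acetyl-CoA to carbon dioxide while it loads the electron carriers NADH and FADH2. The malate-aspartate shuttle carries the reducing power of cytosolic NADH into the mitochondrion. The heart meets most of its energy demand by oxidation in mitochondria, mainly of fatty acids, with glucose and lactate as further fuels, and PI3K acts below the insulin receptor, a known regulator of glucose transport.

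The arrays were alike in overall signal, with medians from 174.8 to 194 intensity units and correlations of 0.947 to 0.966 within groups. After quantile normalization, the summed intensities of 9 cardiomyocyte markers overlapped among the groups. They ran from 247050.0 to 272503 in NTG, 246412 to 258384 in caPI3K and 252367 to 266628 in dnPI3K. Most of these markers were among the brightest probe sets, where that normalization removes differences, so the overlap cannot show equal cardiomyocyte content. Mybpc3 alone of the 9 passed the test. It was higher in dnPI3K than in NTG, at 0.46 (adjusted p = 0.0336 in limma). In caPI3K against dnPI3K it was -0.49 (adjusted p = 0.0164). Of 4 atrial markers, Myl4 and Myl7 were lower in dnPI3K than in NTG, at -5.48 and -5.19 (adjusted p = 0.04 and 0.0476 in limma). Nppa and Sln were higher, at 1.48 and 0.74, neither past the threshold. Myl4 read 223 to 6896 in NTG, 421 to 4304 in caPI3K and 27.9 to 49.7 in dnPI3K, so it also varied widely within groups. The part of these markers in the values of the members was not tested. The dnPI3K arrays also stood apart in their controls. The 3′ control for 18S ribosomal RNA read 3303 to 8097 in dnPI3K, 462 to 671 in NTG and 475 to 540.4 in caPI3K. The geometric mean of 9 probe sets for spiked-in controls was 1567 to 1984 in dnPI3K, 2607 to 3519 in NTG and 2781 to 3386 in caPI3K. The dnPI3K animals also bear a separate series of animal numbers, so series, array controls and the dnPI3K genotype cannot be told apart.

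Idh2, Slc2a1 and Mdh1 are shown with the 250 bases before their annotated start, as RefSeq promoters of the mouse build GRCm38.p6. Idh2 is shown as the member that passed the test, Slc2a1 as the insulin-independent glucose transporter, and Mdh1 as the cytosolic counterpart of the cycle's malate dehydrogenase. Capitals mark the letters ACGTG on either strand, the core that hypoxia-inducible factors recognise. The windows lie at chr7:80115351-80115600 on the minus strand (Idh2), chr4:119108495-119108744 on the plus strand (Slc2a1) and chr11:21571935-21572184 on the minus strand (Mdh1).
Idh2: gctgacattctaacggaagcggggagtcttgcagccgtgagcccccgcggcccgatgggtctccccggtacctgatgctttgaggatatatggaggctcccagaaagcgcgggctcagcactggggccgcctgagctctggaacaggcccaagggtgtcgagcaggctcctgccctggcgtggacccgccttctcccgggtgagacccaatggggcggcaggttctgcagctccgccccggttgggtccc
Slc2a1: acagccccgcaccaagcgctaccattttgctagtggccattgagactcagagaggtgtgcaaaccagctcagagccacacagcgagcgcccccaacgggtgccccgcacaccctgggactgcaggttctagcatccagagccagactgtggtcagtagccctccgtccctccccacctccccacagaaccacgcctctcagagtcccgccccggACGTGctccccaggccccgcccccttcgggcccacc
Mdh1: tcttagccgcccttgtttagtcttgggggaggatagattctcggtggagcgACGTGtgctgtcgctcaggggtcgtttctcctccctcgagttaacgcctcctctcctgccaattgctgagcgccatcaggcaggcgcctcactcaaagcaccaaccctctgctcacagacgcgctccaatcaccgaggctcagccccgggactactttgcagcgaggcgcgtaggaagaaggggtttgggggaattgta

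The ACGTG core stood 36 bases before the start of Slc2a1 and 199 bases before that of Mdh1, and the Idh2 window held none. Promoter windows were found for 40 of the 42 members, not for Slc2a4 and Idh3a. On either strand, ACGTG occurred in 14 of the 40 members (35%), among them Slc2a1, Ldha, Pdhb and Ogdh, against 18.5% of 27025 genes with a window. The letters CACGTG, an E-box that contains the ACGTG core, occurred in 4 members (10%, Pfkm, Ldha, Pfkfb2 and Ogdh) against 6.86% of genes. The letters AAGGTCA, recognised by the estrogen-related receptors, occurred in 3 members (7.5%, Eno1, Pfkfb1 and Got1) against 4.7% of genes. Each match is a description of the letters, and none of these windows was assayed for binding.

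Across the pathway, most members differed little between the groups after quantile normalization, and Idh2 was the only member that passed the test in any comparison. In caPI3K against NTG, 0 of 37 members passed an adjusted p of 0.05 in limma, where 0.107% of all 7480 genes did. In dnPI3K against NTG, 0 of 37 passed, where 2.22% of genes did. In caPI3K against dnPI3K, Idh2 alone passed, 2.7% of members, where 3.46% of genes did and 1.6% were called lower. At an unadjusted p under 0.05 the counts were 5, 4 and 7 members in the same order, or 13.5%, 10.8% and 18.9%, against 7.21%, 14.9% and 17.1% of all genes.

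Members whose groups did not overlap numbered 6 in caPI3K against NTG (3 higher and 3 lower), where 12.6% of genes were so separated, 6.91% higher and 5.71% lower. They numbered 7 in dnPI3K against NTG (4 higher and 3 lower), beside 19.3% of genes, 10.2% higher and 9.09% lower. In caPI3K against dnPI3K there were 11 (3 higher and 8 lower), beside 24.5% of genes, 11.7% higher and 12.8% lower. As a share of the 37 members these counts are 16.2%, 18.9% and 29.7%. Both comparisons with NTG share the same 3 control arrays.

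The median log2 difference of the members from NTG was -0.07 in caPI3K and -0.01 in dnPI3K, and between the transgenic groups it was -0.05, beside medians of 0, 0.01 and 0 over all genes. Of all genes, 50%, 49% and 50% lay below 0. The direction of these small medians depended on scaling. Quantile normalization placed 13 members above 0 and 24 below in caPI3K against NTG, the deposited values 16 and 21, and scaling to a common median 20 and 17. For dnPI3K against NTG the splits were 18 and 19, 12 and 25, and 20 and 17. Between the transgenic groups they were 17 and 20, 23 and 14, and 23 and 14. After quantile normalization the members had a median standard error (SE) of 0.117 against 0.230 over all genes. The fit lets the spread depend on intensity, and several members were very bright. Aldoa ranked 25 to 35 and Mdh2 37 to 48 from the top, where that normalization removes differences. The 95% interval of the difference stayed within 1.5-fold for 28 members in caPI3K against NTG, 28 in dnPI3K against NTG and 26 in caPI3K against dnPI3K. The corresponding shares over all genes were 38%, 32.7% and 30.6%. These shares were not matched for brightness, and the intervals were counted on the quantile normalized scale alone.

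**Figure D1:**
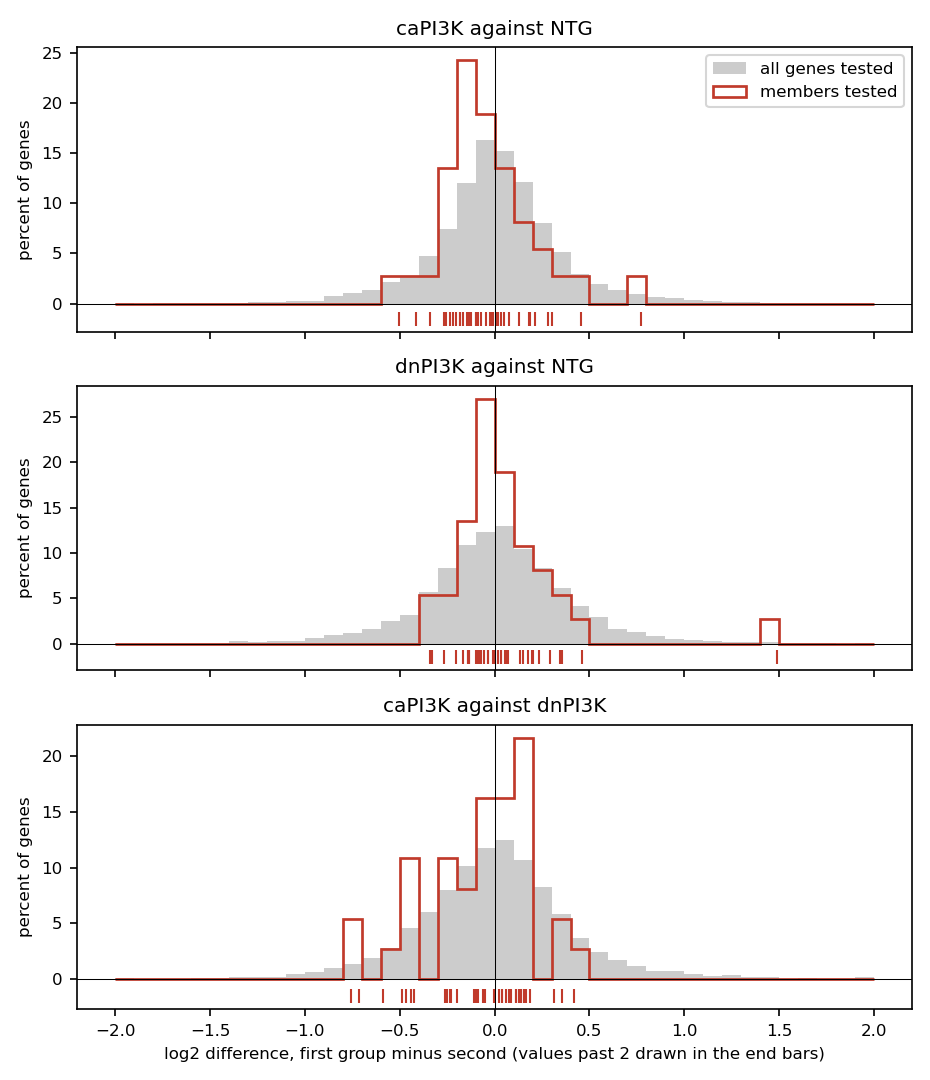
Percent of genes (vertical axis) in bins of log2 difference (horizontal axis) for the 3 comparisons, with all 7480 genes in grey, the 37 members as a red outline and each member as a red tick under 0. Members gather near 0 in all 3 panels, with Slc2a1 at 1.49 in dnPI3K against NTG and Idh2 at -0.76 in caPI3K against dnPI3K among the outermost ticks.

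Idh2, the mitochondrial isocitrate dehydrogenase that makes NADPH from NADP+, was highest in dnPI3K, lowest in caPI3K and between them in NTG. Its normalized intensity was 9558, 10915 and 13427 on the caPI3K arrays, 13696, 14690.1 and 16399.8 on the NTG arrays, and 17657, 20877 and 18352 on the dnPI3K arrays. No array of any group overlapped another group. The means were 11300.1 ± 1963 in caPI3K, 14928 ± 1368 in NTG and 18962 ± 1694 in dnPI3K (SD, n = 3). Idh2 was 1.69-fold higher in dnPI3K than in caPI3K, a log2 difference of -0.76 ± 0.128 (SE) for caPI3K minus dnPI3K, with a 95% interval from -1.04 to -0.48 and an adjusted p of 0.0105 in limma over all 10645 probe sets. The call was lost without the second caPI3K array (-0.73, adjusted p = 0.0526) and without the second dnPI3K array (-0.69, adjusted p = 0.0532).

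Neither transgenic group differed from NTG past the threshold in Idh2. The log2 difference was -0.41 ± 0.128 for caPI3K (adjusted p = 0.493 in limma) and 0.35 ± 0.128 for dnPI3K (adjusted p = 0.23). The dnPI3K value was 0.12 on the deposited values (adjusted p = 0.749) and 0.20 with a common median (adjusted p = 0.599). Within the animal number series from 2800, the caPI3K minus NTG difference was -0.47 with 2 arrays a group, and within the series from 3100 it was -0.29 with 1 array a group. In the deposited values, before quantile normalization, the caPI3K arrays reached 14056 and the dnPI3K arrays began at 15493, so these groups still did not overlap, while the NTG arrays (13535 to 16645) overlapped both. On that scale the caPI3K minus dnPI3K difference was -0.56 with an adjusted p of 0.0666, and with a common median it was -0.55 with an adjusted p of 0.0871.

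Smooth muscle markers followed the same order of groups as Idh2. Their sum (Acta2, Tagln, Myh11 and the dim Cnn1) was 1324 to 1755 in caPI3K, 2069 to 2218 in NTG and 3148 to 4012 in dnPI3K. Of the 4 markers, Cnn1 was at or under the floor on all arrays of both transgenic groups, and Acta2 and Myh11 passed the test in caPI3K against dnPI3K at -1.56 and -1.20. The part of these markers, and of the array controls, in the Idh2 difference was not tested. In whole ventricle, fewer cells of a type and less RNA per cell cannot be told apart.

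**Figure D2:**
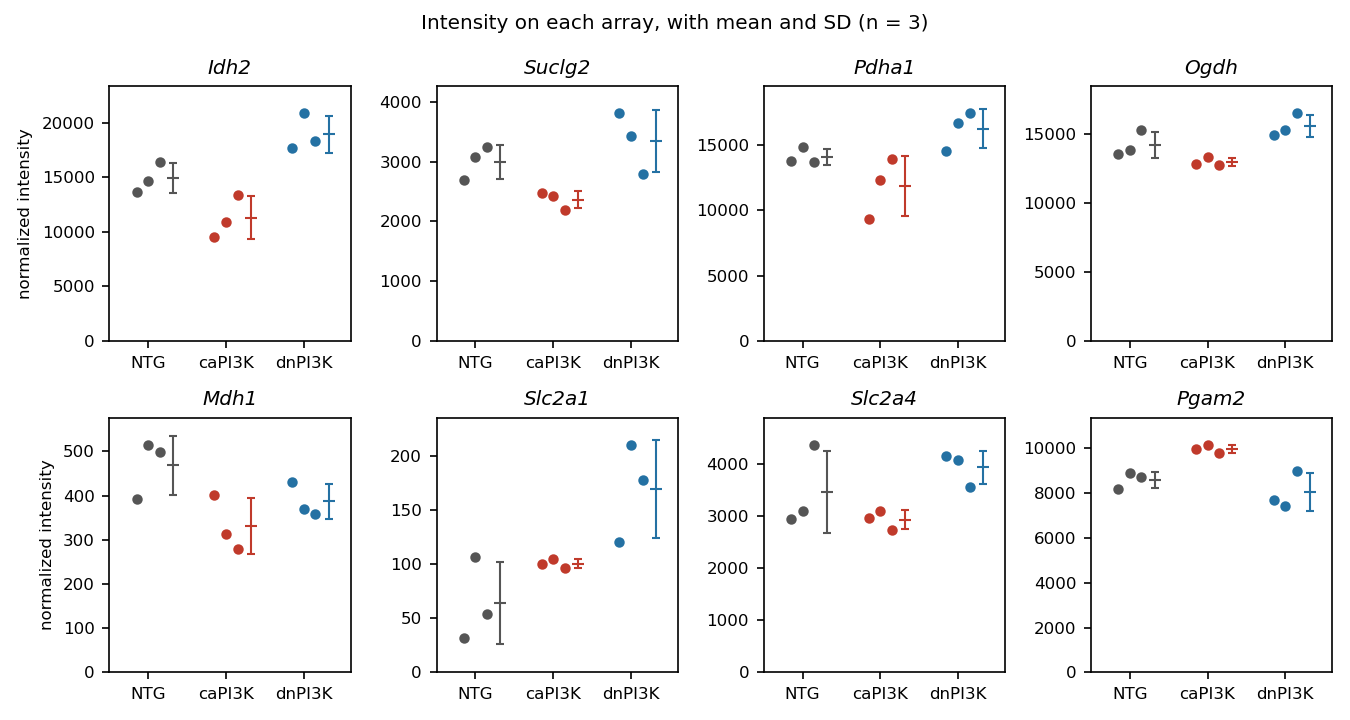
Normalized intensity (vertical axis, linear, from 0) of 8 members on each of the 9 arrays by group (horizontal axis), with 1 dot per array and a bar for the mean and SD of the 3 arrays beside them. The Idh2 dots step up from caPI3K to NTG to dnPI3K without overlap, while the Mdh1 dots of the groups overlap.

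Among the other enzymes of the cycle, those nearest the threshold were also lower in caPI3K than in dnPI3K. Suclg2, the beta subunit of the GTP-forming succinyl-CoA ligase, read 2472, 2423 and 2196 in caPI3K, 2684, 3072 and 3237 in NTG, and 3806, 3432 and 2785 in dnPI3K. The caPI3K arrays lay below all others, and NTG and dnPI3K overlapped. The caPI3K minus dnPI3K difference was -0.49 ± 0.122 with an adjusted p of 0.0598 in limma, which missed the threshold. It was -0.61 with an adjusted p of 0.0282 without the third dnPI3K array, and with other single arrays left out the adjusted p reached 0.186. Ogdh, the first subunit of the 2-oxoglutarate dehydrogenase complex, read 12853, 13363 and 12776 in caPI3K, 13606, 13840.3 and 15343 in NTG, and 14968, 15343 and 16534 in dnPI3K. Its caPI3K arrays again lay below all others, and the difference from dnPI3K was -0.26 ± 0.0809 (adjusted p = 0.117). On the deposited values the Ogdh groups overlapped, and the difference was -0.08 (adjusted p = 0.75).

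Most of the rest of the cycle lay closer to 0. Dlst, the succinyl-transferring subunit that works with Ogdh, was separated between the transgenic groups at -0.23 (adjusted p = 0.344), and its second probe set, whose groups overlapped, gave -0.18. Citrate synthase (Cs), which opens the cycle, was -0.18 in caPI3K and -0.09 in dnPI3K against NTG. Fumarase (Fh1) had the same pair of values, and mitochondrial malate dehydrogenase (Mdh2) was -0.07 in each. None of these 3 passed the test. The Mdh2 value in dnPI3K moved with scaling, to -0.35 on the deposited values (adjusted p = 0.0803 in limma), where all dnPI3K arrays lay below NTG, and to -0.28 with a common median (adjusted p = 0.245). On the deposited values Cs in dnPI3K was -0.17.

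The NAD-linked isocitrate dehydrogenase, the cycle's other route from isocitrate to 2-oxoglutarate, did not show the Idh2 order of groups. Its catalytic subunit Idh3a differed by 0.11 ± 0.116 in caPI3K against dnPI3K, and its subunit Idh3g by 0.08 ± 0.136. Idh3b was above the floor on 3 of 9 arrays, and cytosolic aconitase Aco1, which doubles as an iron regulatory protein, on 6 of 9. The remaining succinyl-CoA ligase subunits also differed little in that comparison, with Suclg1, the shared alpha subunit, at 0.09 and Sucla2, the beta subunit of the ATP-forming enzyme, at 0.02. Sucla2 was lower in dnPI3K than in NTG without overlap, at -0.17 (adjusted p = 0.49). Over the 14 cycle genes, Dld included, 7 lay above 0 and 7 below in caPI3K against dnPI3K, and Idh2 was the only one past the threshold. The 7 above 0 included Idh3b and Aco1, both near the floor.

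The pyruvate dehydrogenase subunits differed in sign among themselves in both comparisons with dnPI3K, and none passed the test. In caPI3K against NTG all 3 lay below 0 after quantile normalization. Pdha1, the catalytic alpha subunit whose phosphorylation switches the complex off, read 9353, 12304 and 13919.9 in caPI3K, 13794, 14799.7 and 13696 in NTG, and 14546, 16694 and 17406 in dnPI3K. The transgenic groups did not overlap, while the third caPI3K array lay inside the NTG range. The caPI3K minus dnPI3K difference was -0.47 ± 0.134 with an adjusted p of 0.0989. On the deposited values these groups overlapped, and it was -0.30 with an adjusted p of 0.346. Against NTG, caPI3K differed by -0.41 within the animal series from 2800 and by 0.02 in the series from 3100.

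Pdhb, the partner subunit of Pdha1, read 9216, 8122 and 9818 in caPI3K, 8685, 8957 and 9917 in NTG, and 8619, 9608 and 9968 in dnPI3K. All groups overlapped, and its largest difference was -0.06 ± 0.0979 in caPI3K against dnPI3K, with a sign that turned under other scalings. Dld, the lipoamide dehydrogenase shared by this complex and the 2-oxoglutarate dehydrogenase complex, read 4152, 5603 and 4703 in caPI3K, 4650.0, 5285 and 5979 in NTG, and 4135, 4567 and 3927 in dnPI3K. Its dnPI3K arrays lay below all NTG arrays, at -0.33 ± 0.126 with an adjusted p of 0.253, where Pdha1 was 0.20 after quantile normalization and 0.02 on the deposited values.

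**Figure D3:**
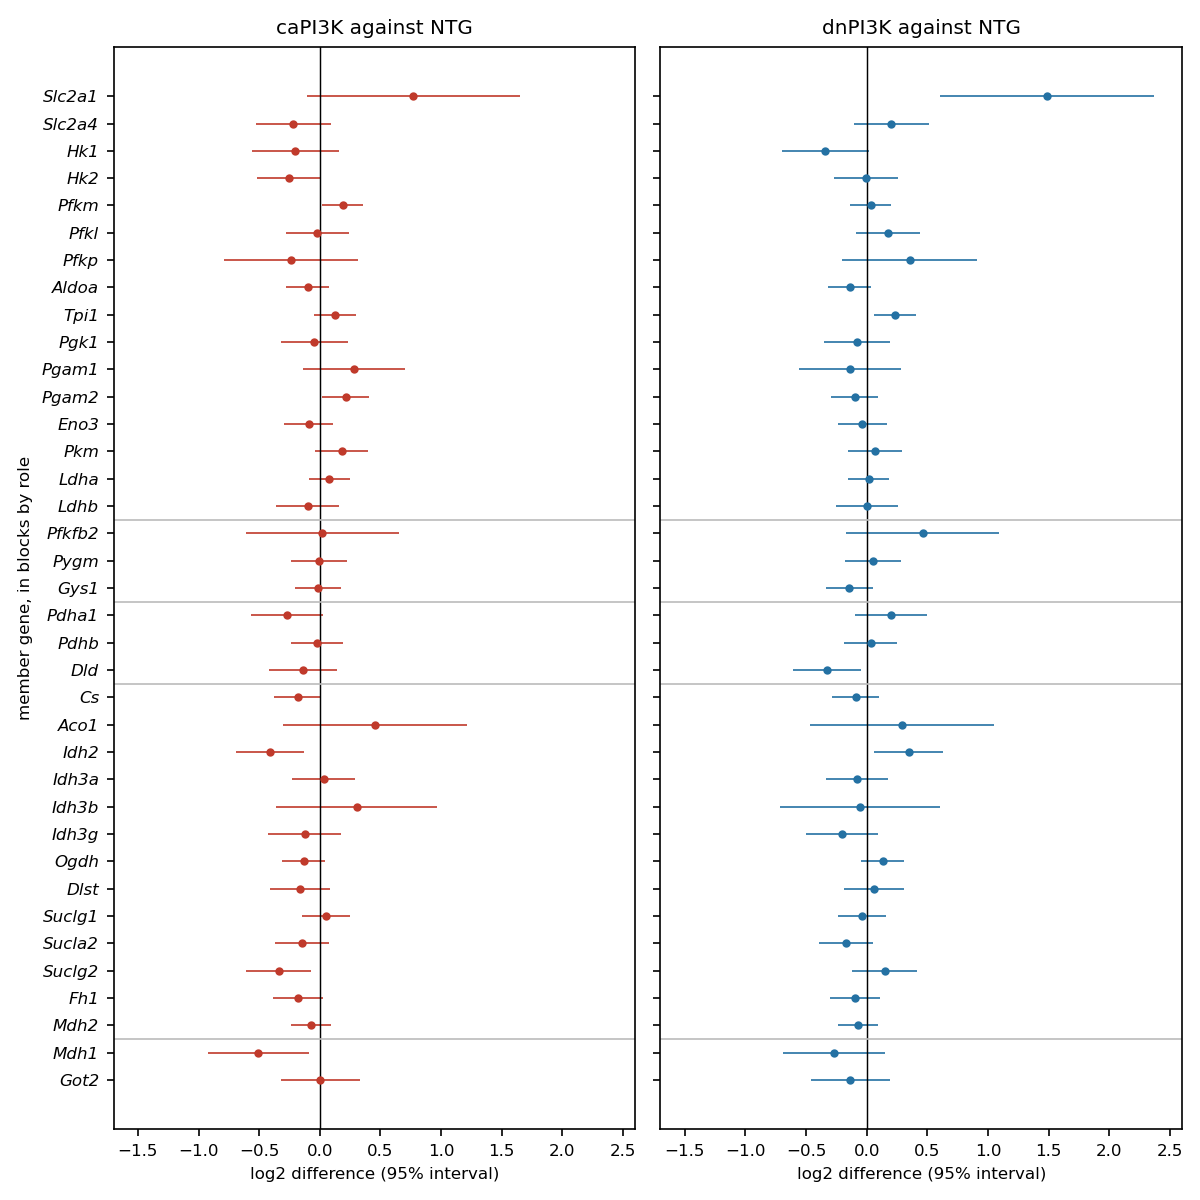
Log2 difference from NTG (horizontal axis) of each of the 37 tested members (vertical axis, in blocks by role) for caPI3K on the left and dnPI3K on the right, with bars for the 95% interval and both panels sharing the 3 NTG arrays. Slc2a1 has the widest interval in both panels and values that depend on the floor (0.77 and 1.49), and Idh2 lies at -0.41 on the left and 0.35 on the right.

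The glucose transporters did not pass the test in any comparison, and Slc2a1 was dim. Slc2a1 (GLUT1), the insulin-independent transporter, read 32.1, 106 and 54.2 in NTG, 100.2, 105 and 96.7 in caPI3K, and 120.4, 210.3 and 178 in dnPI3K. Its dnPI3K arrays lay above all others, and the first NTG array lay under the floor of 35.34 to which low values were raised. The dnPI3K minus NTG difference was 1.49 ± 0.399 with an adjusted p of 0.0953 in limma. Without the second NTG array it was 1.92 with an adjusted p of 0.0386, and with the floor at the 40th percentile it was 0.55. Leaving out other single arrays took the adjusted p as high as 0.269. Slc2a4 (GLUT4), the transporter that insulin brings to the surface of muscle cells, read 2938, 3089.6 and 4364 in NTG, 2962, 3092 and 2739 in caPI3K, and 4152, 4081 and 3564 in dnPI3K. The transgenic groups did not overlap and NTG spanned both, with a caPI3K minus dnPI3K difference of -0.42 ± 0.14 and an adjusted p of 0.146. That comparison passed when the third NTG array was left out (-0.42, adjusted p = 0.0269), while with other single arrays left out its adjusted p reached 0.334. A second, dimmer Slc2a4 probe set differed by -0.22 ± 0.438 with overlapping groups.

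The hexokinases, which trap glucose as glucose 6-phosphate, did not pass in any comparison. Hk1 was lower in dnPI3K than in NTG without overlap (-0.34 ± 0.162, adjusted p = 0.359), and with a common median it was -0.22. Hk2, the insulin-responsive form of muscle, was lower in caPI3K than in dnPI3K without overlap (-0.25 ± 0.118, adjusted p = 0.329). Of the phosphofructokinase genes, which encode the committed step of glycolysis, the muscle form Pfkm was higher in caPI3K than on every array of NTG (0.19 ± 0.0773, adjusted p = 0.691) and of dnPI3K (0.15, adjusted p = 0.357). The liver form Pfkl overlapped in all comparisons. The platelet form Pfkp differed by -0.59 ± 0.251 in caPI3K against dnPI3K by its brightest probe set and by -0.35 by the second, both with overlap.

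Among the glycolytic enzymes after phosphofructokinase, Pgam2 and Tpi1 lay nearest the threshold by their brightest probe sets after quantile normalization. Pgam2, the muscle phosphoglycerate mutase, read 9939, 10137 and 9767 in caPI3K, 8163, 8866 and 8698 in NTG, and 7692, 7413 and 8987 in dnPI3K. All caPI3K arrays lay above all others, at 0.31 ± 0.0878 over dnPI3K with an adjusted p of 0.0906, and at 0.21 over NTG. It passed without the third dnPI3K array (0.41, adjusted p = 0.0474) and on the deposited values (0.39, adjusted p = 0.0497). With other single arrays left out, its adjusted p in limma reached 0.26. Tpi1, triosephosphate isomerase, read 12219, 11591 and 12384 in NTG, 13606, 13067 and 12853 in caPI3K, and 15097, 14192 and 13363 in dnPI3K. Both transgenic groups lay above NTG, with a dnPI3K minus NTG difference of 0.24 ± 0.0778 and an adjusted p of 0.179. On the deposited values the dnPI3K and NTG arrays overlapped, and that difference was 0.08 (adjusted p = 0.726). The caPI3K minus dnPI3K sign of Tpi1 turned from -0.11 to 0.06 on the deposited values and on values scaled to a common median.

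The summed fast skeletal muscle markers lay in the same order of groups as Pgam2. Of 13 listed, 12 had a probe set, and their sum was 15421 to 22230.2 in caPI3K, 8794 to 12323 in NTG and 4003 to 4892 in dnPI3K. Myh1 and Myh2, the fast myosin heavy chains, were at or under the floor on all 9 arrays, and Tnni2 on all caPI3K and NTG arrays. Myl1 and Casq1 passed the test in caPI3K against dnPI3K, at 3.22 and 2.68. Most other markers did not share that order. Of the 9 tested, 4 lay above 0 and 5 below in caPI3K against NTG, with Mylpf at -0.41 and Tnnc2 at -0.39, neither past the threshold. In caPI3K against dnPI3K, 8 of the markers lay above 0 and 1 below, and in dnPI3K against NTG 1 above and 8 below. Their part in the Pgam2 values was not tested.

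Aldoa, the muscle aldolase, was the member whose result turned most on scaling. Its deposited intensity was 24655, 27395 and 25185 in NTG, 26239, 24150.1 and 24956 in caPI3K, and 18984, 19402 and 18461 in dnPI3K. On that scale the dnPI3K arrays lay below all others, and Aldoa fell by 0.44 on the log2 scale in dnPI3K against NTG (adjusted p = 0.0404 in limma). After quantile normalization the groups overlapped, and the difference was -0.14 ± 0.0804 with an adjusted p of 0.464. Scaling to a common median gave -0.36 with an adjusted p of 0.118. The brightest probe set on each dnPI3K array read 30406 to 35389, against 38296 to 49149 in NTG and 38849 to 44128 in caPI3K, and Aldoa ranked between 25 and 35 from the top on every array. Quantile normalization gives equal ranks equal values, so it removes differences of the bright end as a whole. The second, less bright Aldoa probe set was lower in dnPI3K than in NTG without overlap after quantile normalization, at -0.33 ± 0.092 with an adjusted p of 0.102.

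The remaining glycolytic genes did not pass the test. Pgk1, which makes the first ATP of the pathway, Eno3, the muscle enolase, Ldha and Ldhb, the lactate dehydrogenase subunits, each lay between -0.10 and 0.08 on the log2 scale in every comparison, with overlapping groups. On the deposited values Eno3 was -0.21 in dnPI3K against NTG (adjusted p = 0.427), and Ldha was 0.20 in caPI3K against dnPI3K without overlap (adjusted p = 0.331). Pgam1, the form of phosphoglycerate mutase found outside muscle, differed by 0.42 ± 0.191 in caPI3K against dnPI3K with overlap (adjusted p = 0.312). Pkm, the pyruvate kinase of muscle, differed in that comparison by 0.11 ± 0.0999 by its brightest probe set (0.25 on the deposited values) and by 0.67 ± 0.236 by its second, whose groups did not overlap (adjusted p = 0.169). Gapdh could be read only from its 3 array control probe sets, which were among the brightest of all and were not tested. After quantile normalization its 3′ control averaged 30743 ± 764 in NTG, 30691 ± 625 in caPI3K and 29807 ± 1243 in dnPI3K (SD, n = 3), with overlapping arrays. The middle Gapdh control ranked between 1 and 6 from the top on every array, where that normalization removes differences of the bright end. These values therefore cannot show whether Gapdh differed between the groups. Of the 16 tested genes of uptake and glycolysis, 8 lay above 0 and 8 below in caPI3K against dnPI3K.

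Among the regulators and glycogen enzymes, no member passed the test. Pfkfb2, the heart form of the enzyme that sets the phosphofructokinase activator fructose 2,6-bisphosphate, read 123, 128 and 130.4 in NTG, 102, 116 and 179.5 in caPI3K, and 148, 173 and 208 in dnPI3K. All dnPI3K arrays lay above NTG, at 0.46 ± 0.286 with an adjusted p of 0.511. Pygm, the muscle glycogen phosphorylase, read 11048, 9092 and 11269 in NTG, 11424, 9489 and 10234 in caPI3K, and 10785, 11269 and 10378 in dnPI3K. Its groups overlapped, and its largest difference was -0.06 ± 0.104. Gys1, the muscle glycogen synthase, read 2687, 3109 and 2897 in NTG, 2855, 2802 and 2934 in caPI3K, and 2775, 2664 and 2438 in dnPI3K. The caPI3K arrays lay above the dnPI3K arrays, at 0.13 ± 0.0873 with an adjusted p of 0.537.

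**Figure D4:**
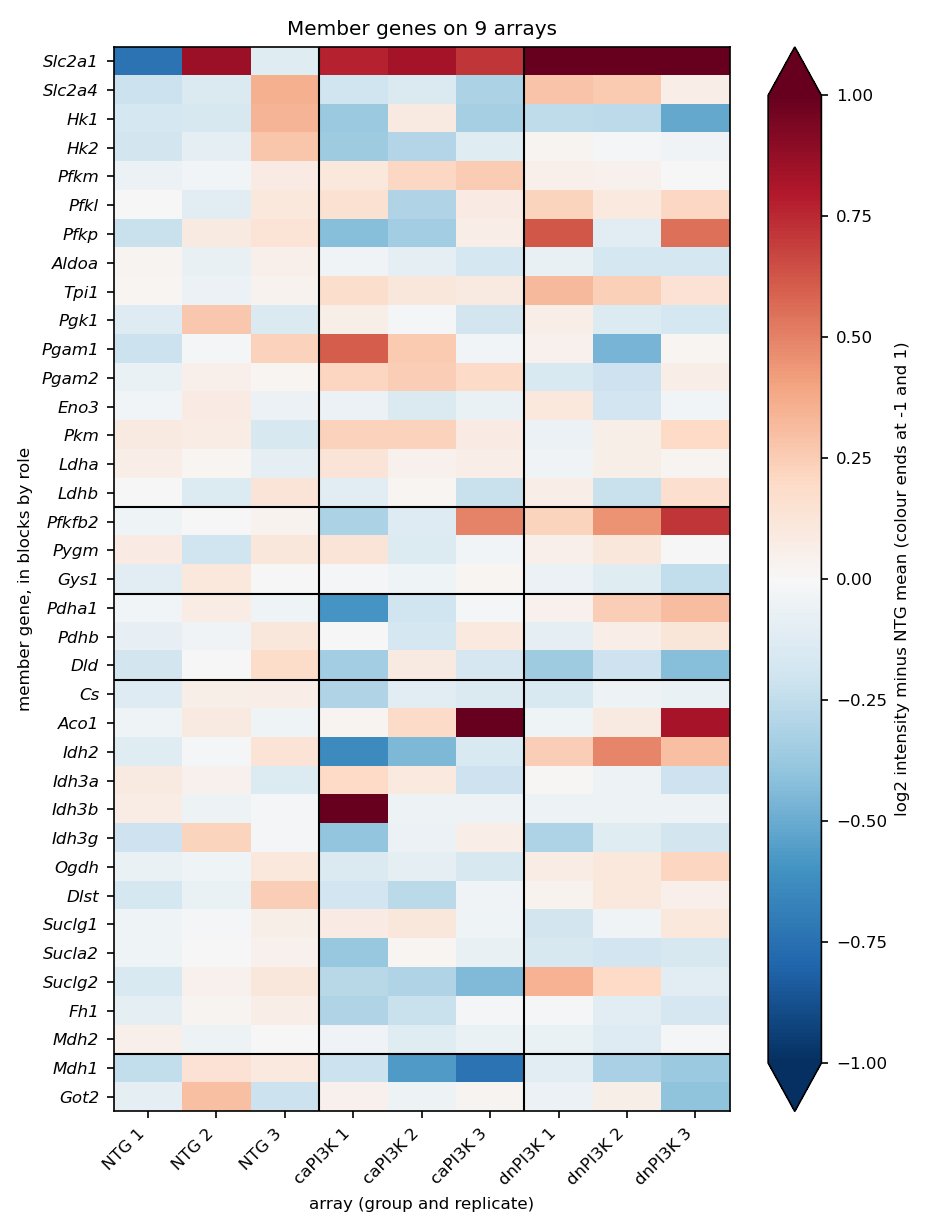
Log2 intensity of the 37 tested members (rows, in blocks by role) on the 9 arrays (columns), relative to each gene's NTG mean, with red for higher and blue for lower and colours ending at -1 and 1. Most cells are pale, while the Idh2 row is blue in caPI3K and red in dnPI3K and the Slc2a1 row is deep red in dnPI3K.

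In the malate-aspartate shuttle, Mdh1, the cytosolic malate dehydrogenase, had the lowest caPI3K minus NTG difference of the 37 members. It read 392, 515 and 498 in NTG, 401, 314 and 278 in caPI3K, and 431, 371 and 359 in dnPI3K. The first caPI3K array lay above the lowest NTG array, so the groups overlapped. The difference was -0.51 ± 0.19 with an adjusted p of 0.636 in limma, and it was -0.34 within the animal series from 2800 and -0.84 in the series from 3100. Mitochondrial aspartate aminotransferase (Got2) read 1821, 2397 and 1678 in NTG, 1997, 1874 and 1976 in caPI3K, and 1868, 2018 and 1471 in dnPI3K. Its groups overlapped, and its largest difference was 0.14 ± 0.148. A second Got2 probe set read 11.5 to 23.7, under the floor on all 9 arrays, and was not tested. Got1, the cytosolic partner of Got2, lay between 7.2 and 22.1 on the 9 arrays, under the floor, and gave no value.

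Other genes of the same pathways were listed beside the members, and 45 of 74 were tested. In caPI3K against NTG 0 passed, in dnPI3K against NTG 0 passed, and in caPI3K against dnPI3K 3 passed, all lower in caPI3K. These are 6.67%, beside 3.46% of all genes called in either direction and 1.6% called lower. At an unadjusted p under 0.05 the counts were 2, 8 and 13 genes, or 4.44%, 17.8% and 28.9%, beside 7.21%, 14.9% and 17.1% of all genes. Pdk1, a kinase that switches pyruvate dehydrogenase off, read 506, 573 and 597 in caPI3K, 687, 553 and 627 in NTG, and 858, 759 and 911 in dnPI3K. The dnPI3K arrays lay above all others, with a caPI3K minus dnPI3K difference of -0.59 ± 0.135 and an adjusted p of 0.0412 in limma. Without 1 transgenic array the difference stayed between -0.66 and -0.52, and the call was lost whichever of the 6 was left out. It held in 12 of 20 alternatives in all, that of Ugp2 in 10 of 20 and that of Slc16a7 in 13 of 19. The related kinase gene Pdk4 lay the other way in caPI3K against dnPI3K, at 1.03 ± 0.392 without overlap (adjusted p = 0.208 in limma). Pdk3 was -0.53 ± 0.355 with overlap (adjusted p = 0.525).

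Ugp2, which makes the UDP-glucose that glycogen synthase uses, read 1081, 1142 and 1076 in caPI3K, 1242, 807 and 1555 in NTG, and 2098, 1811 and 1933 in dnPI3K. The dnPI3K arrays again lay above all others, at -0.82 ± 0.192 for caPI3K minus dnPI3K (adjusted p = 0.0456 in limma). That call was lost without any 1 of the 6 transgenic arrays or without the first NTG array, with differences from -0.87 to -0.77. Slc16a7, a monocarboxylate transporter for pyruvate and lactate, read 43.9, 9.49 and 10.6 in caPI3K, 89.6, 14.9 and 66.1 in NTG, and 162, 125 and 152 in dnPI3K. With 2 of 3 caPI3K arrays on the floor, its difference of -1.94 ± 0.349 (adjusted p = 0.0145 in limma) depended on the floor, and it was -0.37 with an adjusted p of 0.162 at the 40th percentile and -3.15 with an adjusted p of 0.0516 at the 5th. That call was also lost without the second or the third caPI3K array, or the first or the third dnPI3K array, with adjusted p from 0.0507 to 0.0662. The succinate dehydrogenase subunits Sdhb, Sdhc and Sdhd, which link the cycle to the respiratory chain, each differed by less than 0.10 in size in all comparisons. Sdha, their catalytic partner, was lower in caPI3K than on every NTG array (-0.37 ± 0.102, adjusted p = 0.453).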

How the data were processed

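The deposited table gives linear intensity values of 12488 probe sets on the 9 arrays. Per the labels, scanning used a photomultiplier (PMT) setting of 10%, and the computation of the intensities by the authors is not stated in any source used here. Leaving out the lowest 2% and the highest 2% of values, every array had a mean of 500.4, so the deposited intensities had been brought to a common level. Gene symbols come from the platform annotation, which gives 1 symbol to 10855 probe sets, several to 396 and none to 1237. Each array is a different animal, and replicates are numbered by accession order.

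Intensities were quantile normalized over the 9 arrays, floored at their 20th percentile (35.34) and log2 transformed. Printed array values are normalized intensities before the floor unless named as deposited. After normalization 66 control probe sets were removed, and 10645 probe sets above the floor on at least 3 arrays were tested, which removes a gene low everywhere but keeps a gene high in 1 group. All 9 arrays entered 1 limma 3.58.1 fit in R 4.3.3 with group as its only term (lmFit, contrasts.fit, eBayes with an intensity trend). Tests were two-sided, with Benjamini-Hochberg adjustment over all probe sets tested and a threshold of 0.05. SEs are moderated. A gene is represented by its probe set with the highest mean, and no level of a probe set is set against that of another. The number of arrays limits the precision. The fit was tested on simulated data.

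The members, the lists and the tests were chosen with earlier results of these data known. Values on every array are given for 15 members, namely those past the threshold, Idh2 and Mdh1, and up to 4 per role group with the smallest p. Array values of Aldoa are also given. They, and the values of Sdha, Sdhb, Sdhc, Sdhd, Pdk3, Pdk4, Mybpc3, Myl4, Myl7, Nppa, Sln, Mylpf and Tnnc2, were singled out after being seen. Alternatives covered scaling, floor, filter, moderation, array weights, choice of probe set, the groups in the fit, a block for the animal number series, and leaving out single arrays. Promoter windows were matched by symbol to RefSeq (GRCm38.p6), and the array files name no build.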

Additional observations from a re-analysis of the deposited data

Results flagged for a closer look

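The caPI3K minus dnPI3K log2 difference of Idh2 was -0.76, and this difference between the 2 transgenic groups passed the test (adjusted p = 0.0105 in limma). Neither group differed from NTG past the threshold. Genotype, animal number series and array controls cannot be told apart in dnPI3K. Every caPI3K array lay below every NTG array and every dnPI3K array above it after quantile normalization, in 3 of 3 arrays each, while the NTG arrays overlapped both groups in the deposited values. The differences of the 2 groups from NTG share the NTG arrays, which cancel in the caPI3K minus dnPI3K difference.

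A control probe set outside the main measurement, the 3′ control for 18S ribosomal RNA, averaged 6059 ± 2477 (SD, n = 3) deposited intensity units on the dnPI3K arrays, against 542 ± 112 in NTG and 518 ± 37.1 in caPI3K. The lowest dnPI3K array read 3303 and the highest array of the other groups 671. Its part in the values of the members was not tested.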

How the results depend on the processing

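No alternative that could be run brought a member past the threshold in caPI3K against NTG, including the animal number series as a block. In dnPI3K against NTG the count of members past the threshold was 0, and it became 1 with the deposited values (Aldoa) and 1 without the second NTG array (Slc2a1), a range of 0 to 1 over the 9 settings that leave out an array. In caPI3K against dnPI3K the count was 1. It was 2 with the deposited values (Aldoa and Pgam2), 0 with a common median, 0 with no filter, 0 with no intensity trend, 2 with the floor at the 40th percentile or with array weights (Idh2 and Suclg2), 2 with only the 2 groups compared (Idh2 and Slc2a4), and 4 with only probe sets above the median (Idh2, Ogdh, Pgam2 and Suclg2). Leaving out 1 array gave 0 to 3, with 0 without the second caPI3K or the second dnPI3K array and 3 without the third dnPI3K array. Idh2 kept its direction in 21 of 21 alternatives, from -0.88 to -0.55, and passed in 15, with adjusted p from 0.00401 to 0.0871. The floor, filter, moderation and probe set settings could not move its value, so they are no check of its direction. Idh2 lost the call on both scales without quantile normalization, the deposited values (adjusted p = 0.0666) and the common median (0.0871). It also lost the call without the filter (adjusted p = 0.0549) and without the intensity trend (0.0734), both of which leave its value as it was. The causes were not tested.

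Of 954 log2 differences of the 15 members under alternatives, 34 changed sign, in 7 members, and their lowest adjusted p was 0.772. With the deposited values and with a common median, caPI3K against NTG gave 0.042 and 0.124 for Gys1, -0.104 and -0.0222 for Pfkfb2 and 0.00541 and 0.087 for Pygm, and caPI3K against dnPI3K gave 0.046 and 0.050023 for Pdhb, 0.0481 and 0.0521 for Pygm and 0.0554 and 0.0594 for Tpi1. Pdhb in caPI3K against NTG turned to 0.0569 with a common median, and Gys1 to 0.0015 with array weights. With the deposited values, dnPI3K against NTG gave -0.0448 for Ogdh, -0.0707 for Pdhb and -0.0427 for Pygm. Leaving out 1 array gave -0.102 to 0.158 for Got2 in caPI3K against NTG, -0.24 to 0.0196 for Got2 in dnPI3K against NTG, -0.0677 to 0.0376 for Gys1 in caPI3K against NTG, -0.0849 to 0.0509 for Pdhb in caPI3K against NTG, -0.117 to 0.0186 for Pdhb in caPI3K against dnPI3K, -0.0117 to 0.0915 for Pdhb in dnPI3K against NTG, -0.221 to 0.184 for Pfkfb2 in caPI3K against NTG, -0.106 to 0.053 for Pygm in caPI3K against NTG, -0.044 to 0.107 for Pygm in dnPI3K against NTG. No paired analysis was possible because the labels give no replicate numbers that would pair animals. The animal number series was run as a block instead, for caPI3K against NTG, and changed no call. With 3 arrays a group, differences under about the size of the intervals shown cannot be told from 0, and signal near the floor (Slc2a1, Slc16a7, Idh3b, Aco1) gives no reliable fold.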
